A study of Mus musculus with 24 samples.

Results

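The genes Msh3, Msh6, Mlh3, Pms1, Pms2, Fan1, Lig1 and Exo1, which act in DNA mismatch repair and the steps that follow it, were examined in the striatum of a mouse model of Huntington's disease. They were taken by symbol from a table of read counts, 8 of the 54532 genes listed, and each symbol occurred once. No measured value entered the choice of these genes, but it was made with earlier results of these data in view. The table held 24 libraries from 4 genotypes on the C57BL/6 strain: WT, Tyrobp-KO (written TyrobpKO below), Q175 heterozygote (Q175) and Q175 heterozygote with deletion of Tyrobp (Q175_TyrobpKO), each with 6 libraries, 3 from males and 3 from females. Q175 is a knock-in allele that places an expanded CAG repeat in the endogenous huntingtin gene, Htt. Tyrobp encodes the signalling adaptor of several microglial surface receptors. The labels give neither the age of the mice nor the length of the CAG repeat, and repeat length was not measured in these libraries, so that only RNA levels of the repair genes are described.

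An expanded CAG repeat lengthens through life in some tissues, and the striatum is among those where it lengthens most. The proteins made from these genes act on the small loops that the repeat can form when its strands slip. A MutS dimer that holds Msh3 or Msh6 binds the loop or mispair, and a MutL dimer that holds Mlh3, Pms1 or Pms2 is then recruited and in part nicks the DNA. Exo1 removes the nicked strand and Lig1 seals the last nick, while the nuclease Fan1 is known for limiting expansion. In people, common variants at several of these loci are linked to the age at onset of Huntington's disease. In knock-in mice, loss of Msh3, Mlh3 or Pms1 is known to reduce expansion in the striatum, and loss of Fan1 to increase it.

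The tract on which these proteins act is shown first, as the mouse reference carries it in exon 1 of Htt. The 54 bases below lie within the coding sequence at chr5:34761949-34762002 on the plus strand (GRCm38, GENCODE transcript), and capitals mark the longest uninterrupted run of CAG, 4 units. The Q175 allele itself was not read from these data.
Htt exon 1, reference: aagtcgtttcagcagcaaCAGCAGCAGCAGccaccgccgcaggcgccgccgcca

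Promoter sequences are shown for Msh6 and Mlh3 because these were the genes called between carriers and non-carriers of the Q175 allele. The RefSeq table of promoter windows (GRCm38.p6) had an entry for 7 of the 8 genes, and none for Exo1. Windows of 300 bases were searched on both strands for the GC box GGGCGG, the CCAAT box CCAAT, the TATA box TATAAA and the E2F forms TTTCCCGC and TTTGGCGC. Below are the 250 bases before each start, with GC and CCAAT boxes of either strand in capitals.
Msh6, chr17:87974800-87975049, plus strand: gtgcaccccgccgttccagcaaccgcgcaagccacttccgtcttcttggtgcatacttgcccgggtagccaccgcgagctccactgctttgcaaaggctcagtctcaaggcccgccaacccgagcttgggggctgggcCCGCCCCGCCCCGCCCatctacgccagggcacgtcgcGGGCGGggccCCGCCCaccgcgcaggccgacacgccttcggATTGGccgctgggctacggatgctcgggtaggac
Mlh3, chr12:85270600-85270849, minus strand: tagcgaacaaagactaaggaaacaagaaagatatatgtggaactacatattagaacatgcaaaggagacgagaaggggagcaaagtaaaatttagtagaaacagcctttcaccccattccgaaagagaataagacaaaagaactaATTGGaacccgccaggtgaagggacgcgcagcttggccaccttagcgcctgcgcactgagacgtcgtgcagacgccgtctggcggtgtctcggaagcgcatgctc

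The 2 promoters differed in composition. The Msh6 window had a GC content of 71.7% and 37 CpG, with 5 GC boxes, 3 of them run together, and 1 CCAAT box. The Mlh3 window had a GC content of 51.7% and 22 CpG, with no GC box and 1 CCAAT box, against a median of 52.7% and 7 CpG over the 27025 promoter windows of the table. A GC box was found in 35.9% of those windows and a CCAAT box in 37.9%. An E2F form was found in 1.63% of all windows and in those of Msh3 and Msh6 among the 7 genes. The TATA form, present in 14.2% of windows, was in none of those listed for the 7 genes. The match of Msh6 is shown in capitals, and began at base 16 of the transcript (chr17:87975057-87975080, plus strand). A match describes letters in a window and was not measured as a binding site.
Msh6: ctcccgacTTTCCCGCcagcggcg

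Some of the genes lie back to back with, or overlap, another gene. Msh3 (ENSMUSG00000014850, chromosome 13, 92211872 to 92355003, minus strand) had 4 GC boxes in its promoter window. Pms1 (ENSMUSG00000026098, chromosome 1, 53189187 to 53297018, minus strand) and Ormdl1 start 77 bases apart in opposite directions. Pms2 (ENSMUSG00000079109, chromosome 5, 143909964 to 143933968, plus strand) and Aimp2 start 117 bases apart in the same arrangement. The end of Pms2 overlaps Rsph10b on the same strand by 934 bases, and Zswim9 overlaps Lig1 (ENSMUSG00000056394, chromosome 7, 13277283 to 13311433, plus strand) by 1439 bases on the other strand. The use of strand in counting is not given in the sources used here, so reads from these shared stretches cannot be assigned with certainty.

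The remaining genes stand more apart. Msh6 (ENSMUSG00000005370) spans chromosome 17, 87975050 to 87990883, on the plus strand, and shares 25 bases with Fbxo11. Mlh3 (ENSMUSG00000021245) spans chromosome 12, 85234520 to 85270599, on the minus strand. Fan1 (ENSMUSG00000033458) spans chromosome 7, 64346758 to 64374095, on the minus strand, and Exo1 (ENSMUSG00000039748) spans chromosome 1, 175880581 to 175913489, on the plus strand. Fan1 lies 33.9 Mb and Lig1 17.1 Mb from Tyrobp on the same chromosome. Coordinates are those of the deposited table.

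Depth, labels and tissue were checked over all libraries. Libraries held 25.5 to 34.6 megacounts, 19667 genes passed the filter on low counts, and all 8 repair genes were among them. Levels are counts per megacount of the library (CPM) after TMM scaling. Tyrobp was at 5.69 to 11.8 CPM in WT and Q175 libraries, and at 0.214 to 0.448 CPM in those with its deletion. Htt was at 188 to 236 CPM without the Q175 allele and 137 to 178 CPM with it. The 15 markers of striatal projection neurons, the main neurons of this tissue, were all detected, and their summed level was 8750 to 14700 CPM without the Q175 allele and 5610 to 8860 CPM with it. In 5 libraries, 2 of Q175 and 3 of Q175_TyrobpKO, the choroid plexus gene Ttr was above 150 CPM, with 11.3 to 112 CPM in all others. Calls of named repair genes in carriers that were lost without these 5 libraries are stated as such. Animal numbers carried 1 prefix in both genotypes with the deletion. All Q175 mice and WT replicate 3 had another, and the other WT mice had one of their own. The prefix and the Tyrobp genotype therefore cannot be told apart. In Q175 against WT the prefix also differs, apart from WT replicate 3, so the Q175 allele and the prefix can hardly be told apart there. Only Q175_TyrobpKO against TyrobpKO compares genotypes within 1 prefix. Within the prefix of the Q175 mice there was 1 WT library, too few for a test, and it had 22.7 CPM of Msh6 and 43.1 CPM of Mlh3 beside Q175 means of 23.3 and 47.1 CPM.

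All 8 genes were transcribed in the striatum, over a range of more than an order of magnitude. To compare genes, CPM was divided by the gene length given in the deposited table in kilobases. On this scale the mean level over the 24 libraries was 5.77 for Mlh3, 5.07 for Msh6, 2.97 for Fan1, 2.35 for Msh3, 2.23 for Lig1, 2.08 for Pms2, 0.732 for Pms1 and 0.0785 for Exo1. Among the 19667 genes tested, Mlh3 stood at percentile 63 and Exo1 at percentile 1.26. Of these steps, 3 were wider than the spread over libraries. Msh6 lay above Fan1, Pms2 above Pms1 and Pms1 above Exo1 in all 24 libraries, with ranges that did not overlap. The other neighbours overlapped. Mlh3 was above Msh6 in 22 of 24 libraries, Fan1 above Msh3 in 22, Msh3 above Lig1 in 14 and Lig1 above Pms2 in 17.

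**Figure D1:**
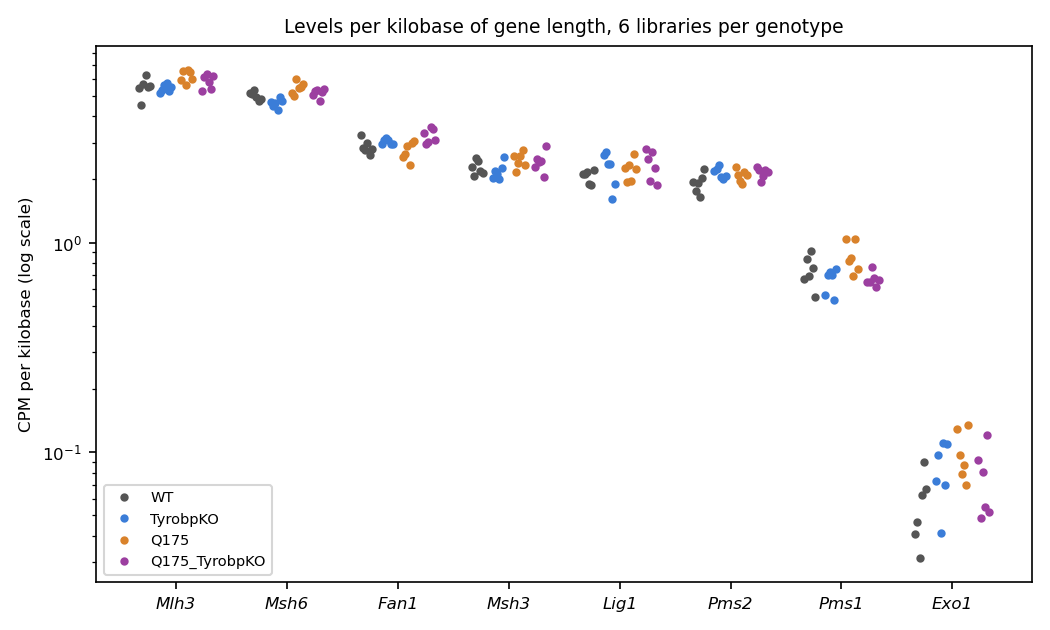
Level of the 8 genes in CPM per kilobase of gene length (log axis), 1 point per library, coloured by genotype, in the order of the mean over 24 libraries. Exo1 lies below every other gene in each library, with a mean of 0.0785 against 0.732 for Pms1. The colours overlap for every gene except TyrobpKO and Q175 for Msh6, and the share of all genes with such a gap was not counted.

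Genes with alternative roles in the same step had unequal levels. Msh3 and Msh6 are the alternative subunits of MutS, and the ratio of their levels per kilobase was 0.456 ± 0.0324 (SD, n = 6) in WT and 0.453 ± 0.0464 in Q175, and without Tyrobp 0.475 ± 0.0358 in TyrobpKO and 0.471 ± 0.0506 in Q175_TyrobpKO. Per kilobase Msh3 was thus below Msh6 in each library, with a highest ratio of 0.54. That order comes from the division by the listed gene length, since in CPM Msh3 was above Msh6 in all 24 libraries, with means of 26.4 and 21.6. Mlh3, Pms1 and Pms2 are the alternative subunits of MutL. The ratio of Mlh3 to Pms2 per kilobase was 2.89 ± 0.479 in WT and 2.99 ± 0.303 in Q175, and without Tyrobp 2.53 ± 0.179 in TyrobpKO and 2.75 ± 0.357 in Q175_TyrobpKO. The ratio of Pms1 to Pms2 was 0.391 ± 0.107 in WT and 0.41 ± 0.0497 in Q175, and without Tyrobp 0.307 ± 0.0406 in TyrobpKO and 0.313 ± 0.0435 in Q175_TyrobpKO. These ratios are given as levels of RNA with no test, and the ranges of the 4 genotypes overlapped for each.

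The first question was whether the RNA of these genes differed with the Q175 allele. None of the 8 was called in either comparison of a carrier genotype with its own control, and Msh6 and Mlh3 were called higher, by 10.6% and 10.5%, when all 12 carriers were compared with all 12 non-carriers. In Q175 against WT, 0 of 8 genes were called at an adjusted p under 0.05 by edgeR, where 9.63% of the genes tested were called, and DESeq2 and limma-voom also called 0. Of the 8 genes, 3 had an unadjusted p under 0.05, against 22.6% of all genes. In Q175_TyrobpKO against TyrobpKO, 0 of 8 were called by edgeR, DESeq2 or limma-voom, against a background of 5.86%, and 1 had an unadjusted p under 0.05, against 18.4% of all genes. In carriers against non-carriers, which averages both effects and so is not independent of them, 2 of 8 genes were called by edgeR against a background of 18.0%, by count a share of the same order. All 8 fold changes were positive there, beside 50.9% of all genes, with a median log2 fold change of 0.13 for the 8 genes and 0.004 for all genes tested. Q175 against WT, 1 of the 2 effects averaged, sets mice of different number prefixes against each other, apart from WT replicate 3.

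**Figure D2:**
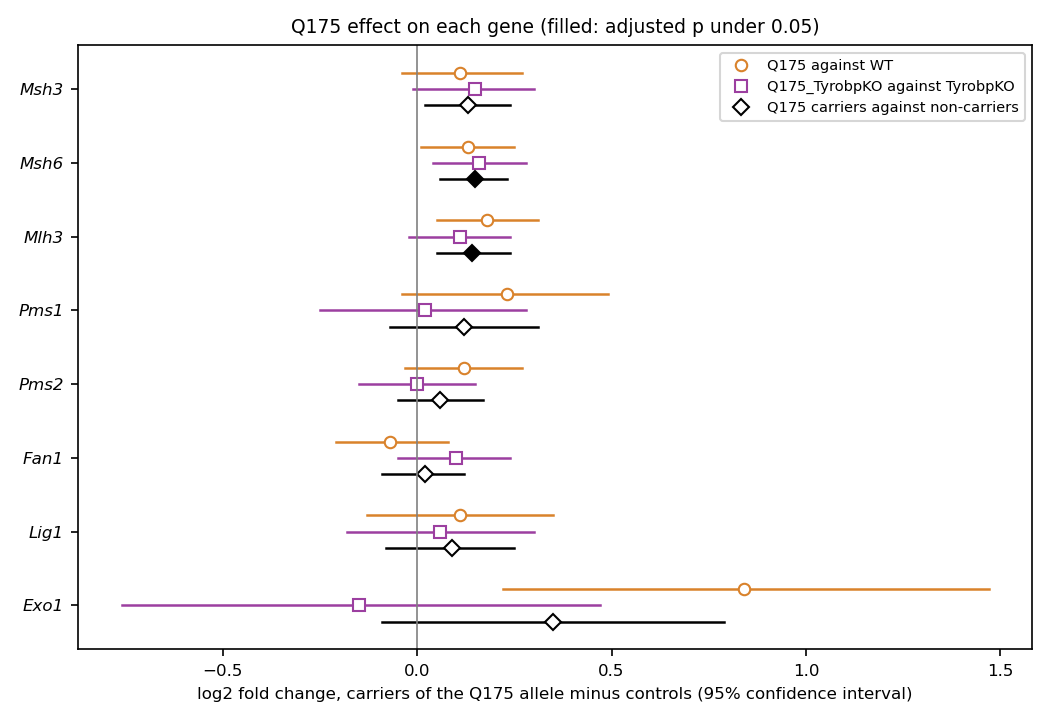
Log2 fold change of each gene for the Q175 allele, with 95% confidence intervals, in Q175 against WT (circles), in Q175_TyrobpKO against TyrobpKO (squares) and over both (diamonds), filled where the adjusted p was under 0.05. Msh6 (0.15) and Mlh3 (0.14) in the comparison over both are the filled points, and the interval of Exo1 is the widest.

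Msh6 is the MutS subunit for single mispairs and very small loops. Its lowest, median and highest levels were 20, 21.3 and 22.7 CPM in WT, 18.3, 19.8 and 21 in TyrobpKO, 21.2, 23.3 and 25.8 in Q175, and 20.2, 22.4 and 23 in Q175_TyrobpKO. In the Q175 group 4 of 6 libraries lay above the highest WT library, and 5 of 6 Q175_TyrobpKO libraries above the highest TyrobpKO library, although the groups overlapped in both comparisons. TyrobpKO and Q175, which differ in both alleles and were not tested against each other, did not overlap. The share of all genes without overlap between these 2 groups was not counted, so this gap cannot be weighed. Against WT, the log2 fold change in Q175 was 0.13 ± 0.06 (SE; edgeR adjusted p = 0.184), and against TyrobpKO that in Q175_TyrobpKO was 0.16 ± 0.06 (adjusted p = 0.114). Over all 12 carriers it was 0.15 ± 0.04 (edgeR adjusted p = 0.0147), an increase of 10.6% with a 95% interval of 4.22% to 17.3%, and 11 of 12 carriers lay above the median of the non-carriers. The call held in each of the 24 fits without 1 library. It was lost without the filter on low counts (adjusted p = 0.0915), in males alone (0.337), in females alone (0.167) and without the 5 libraries of high Ttr (0.117), with a log2 fold change of 0.118 to 0.173 in these fits.

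Mlh3 is a subunit of the MutL endonuclease that cuts at loops. Its lowest, median and highest levels were 34.2, 41.9 and 47.4 CPM in WT, 39, 41 and 43.5 in TyrobpKO, 42.8, 47.3 and 50.3 in Q175, and 40, 45.2 and 48.2 in Q175_TyrobpKO. All 6 Q175 libraries lay above the WT median and 3 above the highest WT library, while 4 of 6 Q175_TyrobpKO libraries lay above the highest TyrobpKO library. Against WT, the log2 fold change in Q175 was 0.18 ± 0.06 (edgeR adjusted p = 0.0796), and against TyrobpKO that in Q175_TyrobpKO was 0.11 ± 0.06 (adjusted p = 0.381). Over all carriers it was 0.14 ± 0.05 (edgeR adjusted p = 0.0259), an increase of 10.5% with a 95% interval of 3.62% to 17.9%. WT replicate 4 was the highest WT library, at 47.4 CPM, and without it Mlh3 was called in Q175 against WT as well, at 0.221 (adjusted p = 0.0362). The call over all carriers was lost without Q175_TyrobpKO replicate 3 (adjusted p = 0.0525), without the filter on low counts (0.0614), in males alone (0.149), in females alone (0.37) and without the 5 libraries of high Ttr (0.15). The log2 fold change was 0.111 to 0.180 in these fits.

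Msh3 is the MutS subunit for the larger loops, and it is well known for its part in CAG expansion. Its lowest, median and highest levels were 23.4, 25.2 and 28.5 CPM in WT, 22.6, 24.2 and 28.8 in TyrobpKO, 24.5, 28 and 31 in Q175, and 23.2, 27.5 and 32.4 in Q175_TyrobpKO. The carrier genotypes had the higher means, but only 3 of 6 Q175 libraries and 1 of 6 Q175_TyrobpKO libraries lay above the highest library of their control. Against WT, the log2 fold change in Q175 was 0.11 ± 0.08 (edgeR adjusted p = 0.403), and against TyrobpKO that in Q175_TyrobpKO was 0.15 ± 0.08 (adjusted p = 0.311). Over all carriers it was 0.13 ± 0.05 with a 95% interval of 0.02 to 0.24, which did not pass the threshold (edgeR adjusted p = 0.097). It passed without TyrobpKO replicate 6 (adjusted p = 0.0443) and without Q175_TyrobpKO replicate 5 (0.0356).

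Pms1 and Pms2 are the other MutL subunits among the 8. Pms2, the main endonuclease subunit of mismatch repair, was at 15.6 ± 1.68 CPM (SD, n = 6) in WT and 17 ± 1.13 in Q175, and without Tyrobp 17.5 ± 1.01 in TyrobpKO and 17.5 ± 1.08 in Q175_TyrobpKO. Its log2 fold change for the Q175 allele was 0.12 ± 0.07 with Tyrobp present and 0.00 ± 0.07 in its absence, with 95% intervals of -0.03 to 0.27 and -0.15 to 0.15. Pms1, which has no known nuclease site of its own, had lowest, median and highest levels of 4.15, 5.46 and 6.86 CPM in WT, 4, 5.31 and 5.64 in TyrobpKO, 5.19, 6.25 and 7.83 in Q175, and 4.61, 4.97 and 5.74 in Q175_TyrobpKO. The Q175 libraries held the 2 highest Pms1 values of all. Its log2 fold change for the Q175 allele was 0.23 ± 0.13 with Tyrobp present (edgeR adjusted p = 0.314) and 0.02 ± 0.13 in its absence (adjusted p = 0.968).

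Fan1 was the gene whose fold change for the Q175 allele was negative with Tyrobp present. Its lowest, median and highest levels were 15.9, 17 and 19.9 CPM in WT, 17.8, 18.3 and 19.1 in TyrobpKO, 14.3, 16.8 and 18.5 in Q175, and 17.9, 19.4 and 21.7 in Q175_TyrobpKO. Against WT, the log2 fold change in Q175 was -0.07 ± 0.07 (edgeR adjusted p = 0.663), and against TyrobpKO that in Q175_TyrobpKO was 0.10 ± 0.07 (adjusted p = 0.538). Over all carriers it was 0.02 ± 0.05, and its 95% interval of -0.09 to 0.12 leaves room for changes of up to -6.05% and 8.71%.

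Lig1, the replicative DNA ligase, was at 8.84 ± 0.592 CPM (SD, n = 6) in WT and 9.54 ± 1.13 in Q175, and without Tyrobp 9.66 ± 1.81 in TyrobpKO and 10 ± 1.61 in Q175_TyrobpKO. The spread was larger in the other 3 genotypes than in WT, and its fold changes for the Q175 allele, 0.11 ± 0.12 and 0.06 ± 0.11 on the log2 scale, were no larger than their errors. Exo1, the exonuclease of mismatch repair, had few reads, with 80 over the 6 WT libraries (7 to 21 each), 120 in TyrobpKO (9 to 26), 141 in Q175 (16 to 33) and 106 in Q175_TyrobpKO (12 to 28). Its lowest, median and highest levels were 0.264, 0.459 and 0.756 CPM in WT, 0.348, 0.716 and 0.933 in TyrobpKO, 0.589, 0.773 and 1.14 in Q175, and 0.41, 0.568 and 1.02 in Q175_TyrobpKO. All 6 Q175 libraries lay above the WT median and 5 of 6 WT libraries below the lowest Q175 library. The log2 fold change in Q175 against WT was 0.84 ± 0.31 with a 95% interval of 0.22 to 1.47 (edgeR adjusted p = 0.0807), and in Q175_TyrobpKO against TyrobpKO it was -0.15 ± 0.30 (adjusted p = 0.856).

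**Figure D3:**
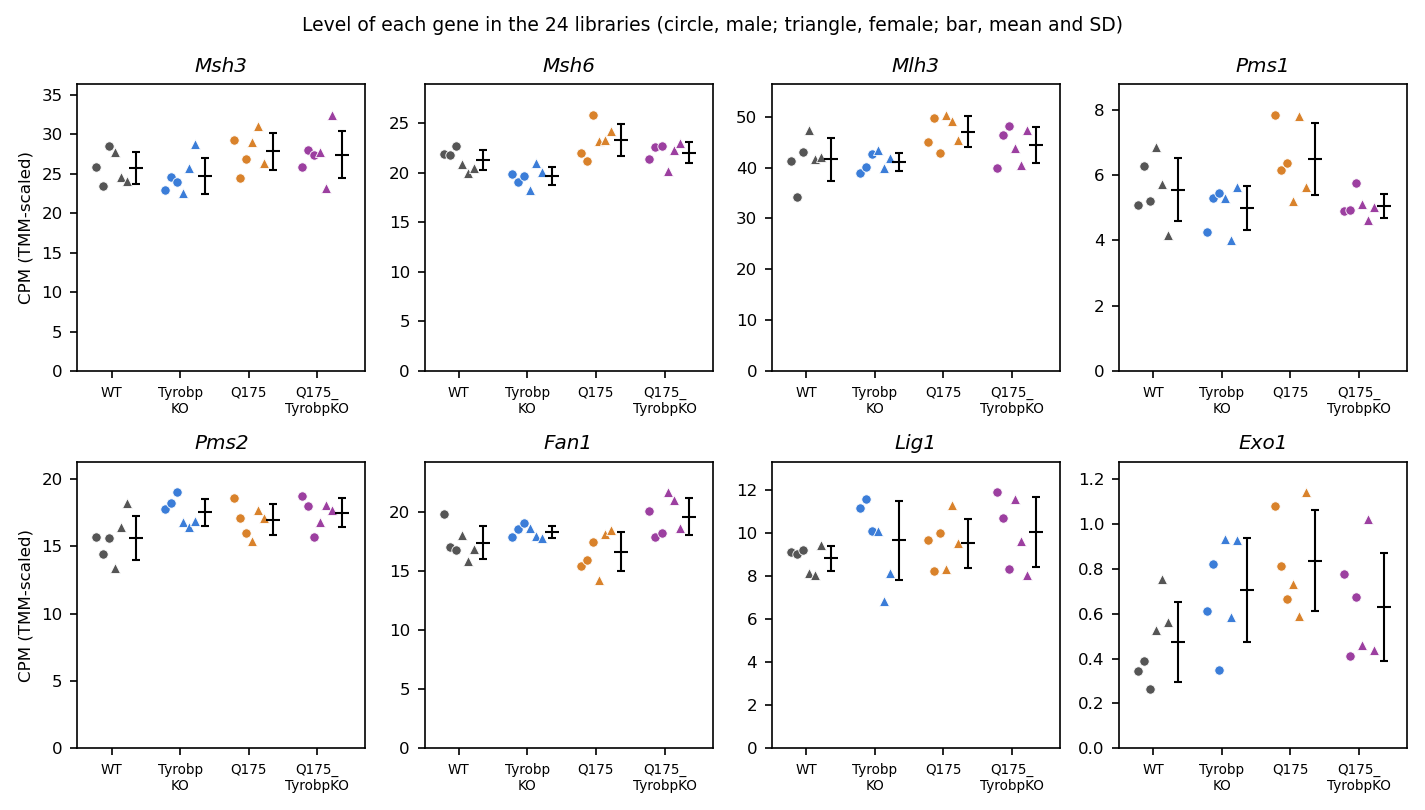
Level of each of the 8 genes in CPM after TMM scaling, 1 point per library (circles, males; triangles, females), with the mean and SD of the 6 libraries of each genotype. The ranges of any 2 genotypes overlap for every gene, except for Msh6 in TyrobpKO (up to 21 CPM) and Q175 (from 21.2 CPM). The share of all genes with such a gap was not counted. Msh6 and Mlh3 have their highest means in Q175, at 23.3 and 47.1 CPM, and Exo1 stays at or below 1.14 CPM.

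Levels of some cell type markers moved with the Q175 allele beside these small differences. In carriers against non-carriers edgeR called 18.0% of all genes tested. Of the 15 markers of striatal projection neurons, 12 were called lower and 0 higher in carriers, with a median log2 fold change of -0.59. Of 6 astrocyte markers 4 were called lower, and their summed level was 4240 to 4780 CPM without the allele and 3320 to 3950 CPM with it. Of 6 markers of endothelium and pericytes 4 were called lower, with summed levels of 255 to 307 CPM without the allele and 223 to 277 CPM with it. Of 6 markers of mature oligodendrocytes 2 were called lower, with summed levels of 8330 to 13700 CPM and 7550 to 11500 CPM in the same order. Of 6 microglial markers 0 were called, with summed levels of 224 to 306 CPM without the allele and 238 to 318 CPM with it. Of 5 markers of neurons in general 1 was called higher and 0 lower. Their summed levels were 2690 to 4330 CPM without the allele and 2290 to 4110 CPM with it. Of 6 markers of oligodendrocyte precursors 0 were called. Of 6 choroid plexus markers, Ttr among them, 4 were called higher, with summed levels of 25.1 to 130 CPM without the allele and 32 to 4030 CPM with it. These calls are not given without the libraries of high Ttr. Markers of cortical excitatory neurons ranged widely within each genotype, from 28.7 to 863 CPM in sum over all libraries. Mismatch repair genes are known to be transcribed in many cell types, and in bulk tissue fewer cells of a type and less RNA per cell cannot be told apart. The part of cell composition in the values of Msh6 and Mlh3 was not tested.

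The second question was whether deletion of Tyrobp changed the repair genes. In TyrobpKO against WT, 0 of 8 genes were called by edgeR, DESeq2 or limma-voom, against a background of 0.117%. Only Pms2 had an unadjusted p under 0.05, against 6.45% of all genes. Its log2 difference was 0.16 ± 0.07 (edgeR adjusted p = 0.749), with all 6 TyrobpKO libraries above the WT median. In Q175_TyrobpKO against Q175, 0 of 8 were called by the same 3 tools, against a background of 0.158%. At an unadjusted p under 0.05 there were 2, against 6.04% of all genes. Fan1 had a log2 fold change of 0.23 ± 0.07 with a 95% interval of 0.09 to 0.38 (edgeR adjusted p = 0.53). All 6 Q175_TyrobpKO libraries lay above the Q175 median for Fan1, and 4 above the highest Q175 library. For Pms1 the log2 difference was -0.36 ± 0.13 with a 95% interval of -0.63 to -0.10 (edgeR adjusted p = 0.712), and 5 of 6 Q175_TyrobpKO libraries lay below the lowest Q175 library. Neither passed the adjustment over all genes. Both comparisons set mice of different number prefixes against each other, as does Q175 against WT for all WT mice but 1.

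The third question was whether the effect of the Q175 allele differed with Tyrobp genotype. For this interaction edgeR called 0 of the 8 genes and 0 of the 19667 genes tested (0%), with 707 genes (3.59%) at an unadjusted p under 0.05; over all genes DESeq2 called 2 and limma-voom 1, and none of these was among the 8. Exo1 was the gene of the 8 with an unadjusted p under 0.05. Its interaction was -0.99 ± 0.43 on the log2 scale with a 95% interval of -1.87 to -0.11 (edgeR adjusted p = 0.999), from 7 to 33 reads per library. The interaction was 0.16 ± 0.10 for Fan1 and -0.21 ± 0.18 for Pms1, each with an adjusted p of 0.999. The Q175 effects with and without Tyrobp were thus not shown to differ for any of the 8.

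Both sexes were in each genotype, and the repair genes were also compared between them. Between females and males 0 of 8 genes were called by edgeR, against a background of 0.0814%. At an unadjusted p under 0.05 there were 0 of 8, against 4.05% of all genes. For the interaction of the Q175 allele with sex, edgeR called 0 of 8 genes, against a background of 0%. Again 0 of 8 had an unadjusted p under 0.05, against 3.02% of all genes. The log2 difference between females and males was -0.12 ± 0.08 for Lig1 and 0.31 ± 0.21 for Exo1.

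Other genes of these pathways were taken from lists compiled from general knowledge. Among 75 tested genes of 7 lists that cover mismatch repair, replication factors, nucleases, the Fanconi pathway, base and nucleotide excision repair and other candidate modifiers of onset, edgeR called 11 higher and 3 lower in carriers. That share, 18.7%, stood beside 18.0% of all genes tested, and the median over the lists was 0.04 on the log2 scale. In Q175 against WT 6 were called higher and 3 lower (12%, beside 9.63% of all genes), and in Q175_TyrobpKO against TyrobpKO 4 higher and 1 lower (6.67%, beside 5.86%). Without the 5 libraries of high Ttr the counts were 9, 5 and 0 in the same order. Calls over all genes fell there from 3544, 1893 and 1153 to 2101, 1130 and 287. TyrobpKO against WT and Q175_TyrobpKO against Q175 called none of the 75 by edgeR, DESeq2 or limma-voom, beside 0.117% and 0.158% of all genes by edgeR. In the same order, 5 and 4 had an unadjusted p under 0.05, beside 6.45% and 6.04% of all genes.

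Of 14 tested replication factors, edgeR called 2 higher and 1 lower in carriers, beside 18.0% of all genes called. Rfc5, a subunit of the clamp loader, fell by 0.34 ± 0.05 on the log2 scale in carriers (edgeR adjusted p = 2.97e-05), from 14.4 to 11.4 CPM, and was called in each of the 8 other settings and the 24 fits without 1 library. Rpa1, the large subunit of the protein that coats single strands, rose by 0.20 ± 0.04 (0.000756). Pole, the catalytic subunit of a replicative polymerase, rose by 0.47 ± 0.17 (0.0499), a call kept in 7 of 24 fits without 1 library and in 2 of the 8 other settings. Without the libraries of high Ttr its log2 fold change was 0.518 and the call was lost (edgeR adjusted p = 0.11). Of the nucleases and their partners, Rad50 (0.22 ± 0.05) and Rbbp8 (0.52 ± 0.15) rose, both involved in end resection at double-strand breaks. Without the libraries of high Ttr both calls were lost (edgeR adjusted p = 0.189 and 0.218), with log2 fold changes of 0.133 and 0.356.

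The Fanconi pathway, which repairs DNA crosslinks and with which Fan1 works, had calls in both directions. Fancd2, the protein that is marked by ubiquitin in this pathway, fell by 0.65 ± 0.14 on the log2 scale in carriers (edgeR adjusted p = 0.00106), from 6.49 to 4.15 CPM. Fancb, part of the core complex that acts on it, fell by 0.57 ± 0.12 (0.00077). Fancg, of the same complex, rose by 0.39 ± 0.07 (0.00029), from 11.8 to 15.4 CPM. Ube2t, the conjugating enzyme, rose by 0.64 ± 0.20 (0.0239) from 0.714 to 1.1 CPM. Without the libraries of high Ttr its log2 fold change was 0.546 and the call was lost (edgeR adjusted p = 0.166). The other 8 tested genes of this list were not called, and its median log2 fold change was -0.05.

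In the remaining lists, calls were higher. Apex1 and Xrcc1 of base excision repair rose by 0.24 ± 0.08 and 0.16 ± 0.05 on the log2 scale, 2 of 13 tested. The call of Apex1 was kept in 14 of the 24 fits without 1 library. Without the libraries of high Ttr its log2 fold change was 0.266 and the call was lost (edgeR adjusted p = 0.0665). Ercc3, the helicase of nucleotide excision repair, rose by 0.26 ± 0.04 (edgeR adjusted p = 8.06e-05), 1 of 13 tested, while Ercc5 of the same list did not pass (0.09 ± 0.05, adjusted p = 0.218). Rrm2b, a subunit of ribonucleotide reductase, is a candidate modifier of onset at a locus outside mismatch repair and rose by 0.22 ± 0.04 (edgeR adjusted p = 0.000265), from 52.7 to 61.2 CPM.

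**Figure D4:**
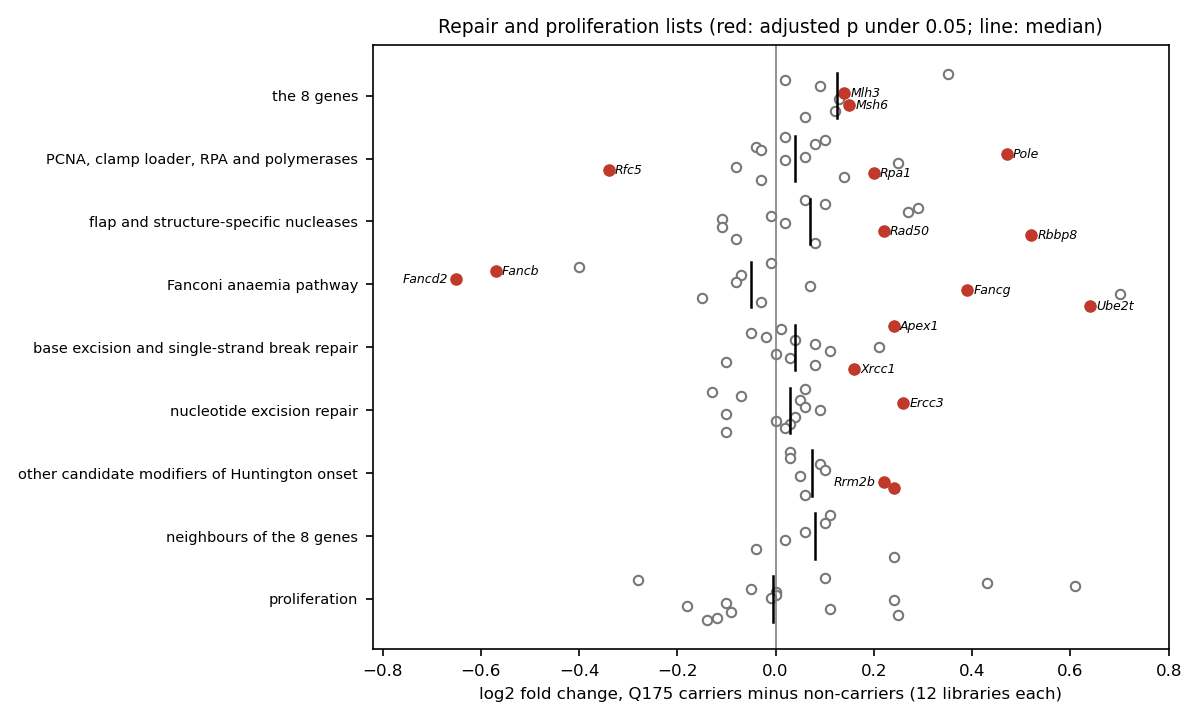
Log2 fold change in Q175 carriers against non-carriers for the 8 genes, 6 of the 7 repair and modifier lists (that of other mismatch repair subunits is not drawn), the gene neighbours and a proliferation list, 1 point per tested gene, red where the adjusted p was under 0.05, with a bar at each list's median. Called genes lie on both sides of 0 among replication factors and the Fanconi pathway, and the proliferation list has no red point.

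Many repair genes are also expressed with the cell cycle, so a list of 16 proliferation genes was read beside them. In carriers edgeR called 0 of 16, beside 18.0% of all genes, with a median log2 fold change of -0.01. Of the 16, 3 had an unadjusted p under 0.05, beside 29.7% of all genes, and DESeq2 and limma-voom called 0. The 2 of smallest p in Q175 against WT, Mcm6 and Rrm1, had log2 fold changes of 0.24 ± 0.09 and 0.11 ± 0.06 in carriers (edgeR adjusted p = 0.0706 and 0.178). The genes that neighbour the 8 on the chromosome were read in the same way. Of 6 tested, 0 were called in carriers by edgeR, DESeq2 or limma-voom, beside 18.0% of all genes by edgeR. At an unadjusted p under 0.05 there was 1, beside 29.7% of all genes. Ormdl1, which faces Pms1, had a log2 difference of 0.24 ± 0.09 (edgeR adjusted p = 0.0692), and Aimp2, which faces Pms2, had 0.10 ± 0.06 (0.27).

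The genes whose levels most resembled each of the 8 were found by Pearson's r of log2 CPM over the 24 libraries, among 19666 genes each. Libraries share genotype and sex, so r is also given after the mean of each genotype and sex was removed. Msh3 was most like Scaper (r = 0.84, and 0.83 within groups) and Klhl9 (0.84 and 0.83). Msh6 was most like Tmem35a (0.82 and 0.64) and Htr2c, a serotonin receptor (0.81 and 0.54). Mlh3 was most like Gm26826 (0.82 and 0.79) and Slc27a2 (0.82 and 0.76). The r of Msh6 fell most within groups, and that of Msh3 hardly at all.

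For the other genes the values were as follows. Pms2 had the highest value, with Cln6 (r = 0.90, and 0.90 within groups) and Stx17 (0.87 and 0.81). Pms1 was most like Nup155 (0.81 and 0.78) and Rfx7 (0.79 and 0.72). Fan1 was most like Nhlrc3 (0.72 and 0.57) and Ift140 (0.71 and 0.72). Lig1 resembled Gm12743 (0.76 and 0.70), and Exo1, from few reads, was most like Slc7a6 (0.78 and 0.72) and Sirt5 (0.73 and 0.69). None of the genes named here was in a repair list.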

How the data were processed

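Striatal RNA of 24 mice (6 per genotype) was sequenced from 1 hemisphere each on an Illumina NovaSeq by a provider, per the labels' protocols. The authors deposited raw counts of reads per gene, which are whole numbers and were not normalized. STAR, featureCounts and DESeq2 are named in the submitters' processing notes, and so is the human build GRCh38, whereas the identifiers and coordinates in the deposited table are those of mouse. The spans of 7 of the 8 genes were identical in GENCODE M21 on GRCm38, and that of Msh6 was not. How strand was used in counting is not given in the sources used here.

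From these counts, edgeR 4.0.16 (R 4.3.3) with TMM, filterByExpr on genotype and the robust quasi-likelihood test fitted a mean per genotype and a sex term to all 24 libraries. P-values were adjusted (Benjamini-Hochberg) over 19667 genes, and a gene was called at an adjusted p under 0.05. Standard errors and 95% intervals come from the same fit, whose biological coefficient of variation was 16.2%. For the interaction with sex, each genotype and sex had its own mean. Log2 CPM for likeness used a prior count of 2. Libraries held 25.5 to 34.6 megacounts, so that 1 read was near the lowest level resolved for Exo1. The alternatives were DESeq2 1.42.0, limma-voom 3.58.1, DESeq2 size factors, no filter, no sex term, only the libraries compared, each sex alone, each library left out in turn and, chosen after seeing the data, leaving out 5 libraries with Ttr above 150 CPM. The calculation was tested on simulated data. The labels do not say whether libraries of a genotype came from separate litters, so p-values measure the spread between these libraries. Replicate numbers only name a library.

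The 8 genes, the lists and the tests were chosen with earlier results of these data known. Named beside the 8 were Tyrobp, Htt, from each list the 2 genes whose p for Q175 against WT was lowest, any gene called in a comparison of genotypes and, for each of the 8, the 2 genes of highest correlation. Some genes that this rule names are not reported here.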

Additional observations from a re-analysis of the deposited data

How the results depend on the processing

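In Q175 against WT none of the 8 genes was called, and leaving out each library in turn gave 0 to 1 calls, the 1 being Mlh3 without WT replicate 4 (0.221, edgeR adjusted p = 0.0362). The 2 calls in carriers against non-carriers, Msh6 and Mlh3, became 0 without the filter on low counts, in males alone, in females alone and without the libraries of high Ttr, and 1 to 3 when each library was left out. Without the filter more genes were tested, and the other settings used fewer libraries. The libraries of high Ttr were all from carriers. Why the calls were lost was not tested, and the direction of both genes held in all of these settings. The counts of called genes among the 8 stayed at 0 under every alternative run in the other comparisons.

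Values near 0 changed sign in some settings, and none of these passed the threshold. In males alone the log2 fold changes were -0.066 for Pms2, -0.086 for Lig1 and 0.060 for Exo1 in Q175_TyrobpKO against TyrobpKO, 0.039 for Mlh3 in TyrobpKO against WT, 0.011 for Msh3 in Q175_TyrobpKO against Q175, and -0.057 for Fan1 and -0.028 for Lig1 in carriers. In females alone they were 0.003 for Fan1 in Q175 against WT, -0.021 for Pms1 in Q175_TyrobpKO against TyrobpKO, 0.011 for Msh3 and -0.036 for Lig1 in TyrobpKO against WT, and -0.004 for Lig1 in Q175_TyrobpKO against Q175. Without the libraries of high Ttr they were -0.005 for Pms2 and 0.296 for Exo1 in Q175_TyrobpKO against TyrobpKO, and -0.003 for Fan1 in carriers. Pms2 in Q175_TyrobpKO against TyrobpKO was -0.001 with DESeq2 size factors, -0.002 without the filter and -0.000 with DESeq2. When each library was left out, the ranges that crossed 0 were -0.029 to 0.072 for Pms1, -0.018 to 0.034 for Pms2 and -0.007 to 0.120 for Lig1 in Q175_TyrobpKO against TyrobpKO, -0.069 to 0.018 for Mlh3 in TyrobpKO against WT, -0.072 to 0.029 for Msh3 in Q175_TyrobpKO against Q175, and -0.000 to 0.042 for Fan1 in carriers. The cause of these changes was not tested.

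Over all genes the number called in Q175 against WT was 1893, falling to 759 with only the males, to 187 with only the females and to 1130 without the libraries of high Ttr. In Q175_TyrobpKO against TyrobpKO it was 1153, 104, 290 and 287 in the same order. In carriers it was 3544, 1242, 1195 and 2101. Exo1, at 7 to 33 reads per library, had a log2 fold change of 0.42 to 1.34 over the alternatives in Q175 against WT. No paired analysis was possible because replicate numbers were given in accession order and pair no libraries.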
